A study of Mus musculus with 8 samples.

Results

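Wild-type competitor cells from marrows that held different mutant cells were set side by side: CD45.1+ LSK cells sorted from mice whose mutant graft was RUNX1S291fs/Ezh2Δ/Δ, against CD45.1+ LSK cells sorted from mice whose mutant graft was RUNX1S291fs. They are 2 of the 8 arrays of the series, chosen by their titles, with 1 array a group, and 13300 of the 20833 genes with a named probe were measured, meaning well above background on 1 array or both. Both groups are labelled wild type, C57BL/6, disease stage normal, from pre-MDS mice at month 4 after transplantation. Per the design text, CD45.2+ stem cells with Cre-ERT and either Ezh2wt/wt or Ezh2flox/flox alleles received RUNX1S291fs or an empty control by retrovirus, and lethally irradiated recipients were given them with CD45.1+ wild-type marrow that kept the mice alive. Ezh2 was then deleted. The competitors of both groups therefore carry neither lesion by their labels, share irradiated recipients and a retrovirally transduced CD45.2+ graft, and differ in the recorded genotype of that graft. Not given in the sources used here were the promoter of Cre-ERT, the agent that induced it, the share of CD45.1+ cells, and the age and sex of the mice. Pools of 2 to 4 mice are recorded for the mouse genotypes, without separate mention of the CD45.1+ arrays. The groups are called double-mutant-host cells and RUNX1S291fs-host cells below.

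LSK cells are the lineage-negative, Sca-1-positive, c-Kit-positive marrow fraction, which holds the long-term stem cells and the multipotent progenitors that follow them. Stem cells are known for low cycling, for surface CD150 and EPCR, and for a bias of some of them towards platelets, whereas later progenitors begin to transcribe lymphoid or myeloid granule genes before they leave the fraction. Competitors are the healthy cells that regenerate next to a mutant clone, so their RNA is a readout of cells that share the mutant marrow without the mutation.

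A level is the log2 processed signal of a probe minus the 75th percentile of its array, so 0 is a probe at that percentile, and a difference is the level in double-mutant-host cells minus that in RUNX1S291fs-host cells. Both arrays lay on 1 slide. Of the probes, 49.9% were well above background in double-mutant-host cells and 43.9% in RUNX1S291fs-host cells, at a 75th percentile of signal of 428.8 and 185.7, the second being the lowest of the 8 arrays (185.7 to 474.3). Median SDs over repeat spots were 0.0666 and 0.0719, and 7 measured spike-in probes differed by -0.27 to -0.07. With 1 array a group there is no replicate check and no test, array number limits the precision, and counts describe these arrays alone. A gene was called where its difference reached 2-fold (1 on the log2 scale). A value not well above background was raised to the lowest signal that was so on its array, and the difference is then written "at least", a bound that holds for this background correction and scaling alone. Fewer cells of a type and less RNA per cell cannot be told apart in sorted bulk cells.

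The sort was checked first. All 11 sort markers were well above background in double-mutant-host cells and 10 in RUNX1S291fs-host cells. Kit, the stem cell factor receptor of the sort, had levels of 4.72 in double-mutant-host cells and 4.06 in RUNX1S291fs-host cells. Ly6a, which encodes Sca-1, had 4.14 and 3.90 in the same order of hosts, and Ptprc, which encodes CD45, had 2.20 and 1.80. Cd34 was nearly level at 7.84 in double-mutant-host cells and 7.88 in RUNX1S291fs-host cells. These 4 genes, 3 of them the sorted antigens and Cd34 an antigen of progenitors, were bright on both arrays and under 2-fold apart. Ezh2, the methyltransferase of Polycomb complex PRC2, had 3.85 in double-mutant-host cells and 4.01 in RUNX1S291fs-host cells, and Runx1, the transcription factor, had 3.55 and 3.25. Whether the Ezh2 probe lies in the deleted part of the gene, or the Runx1 probe reads the retroviral insert, is not known here, so neither value checks the labels. Xist was at 1.20 in double-mutant-host cells and 1.78 in RUNX1S291fs-host cells, and the 4 Y-linked genes Ddx3y, Eif2s3y, Kdm5d and Uty were not well above background on either.

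In all, 1030 genes were at least 2-fold higher in double-mutant-host cells (7.74% of genes measured) and 1249 at least 2-fold lower (9.39%), together 17.1%. Among the 11947 genes well above background on both arrays, 653 were higher (5.47%) and 1104 lower (9.24%). At 4-fold the counts were 236 higher and 183 lower, and at 8-fold 62 and 53. The median difference of all genes measured was -0.05. Where a gene had more than 1 measured probe, all its probes lay on the same side in 165 of 200 higher genes and in 230 of 266 lower genes, and all were past 2-fold in 94 and in 122 of them. Genes bright on 1 array alone made up 377 of the higher and 145 of the lower genes, out of 1208 and 145 such genes. The lowest signal well above background, used as the bound, was -5.36 in double-mutant-host cells and -4.12 in RUNX1S291fs-host cells. These lie over 2-fold apart, so a deficit against that bound passed 2-fold at any level. With normexp background correction 32 of the 377 and 129 of the 145 were past 2-fold. Among the 1757 called genes bright on both arrays, 979 were. Normexp adds the same offset of 50 to both arrays before scaling, which weighs more on the dimmer RUNX1S291fs-host array. The counts of 32 and 129 therefore do not compare the directions evenly. Which direction held more genes depended on the scaling. Spike-in scaling gave 1321 higher and 957 lower (58.0% of called genes higher), and the percentile taken over probes bright on both arrays gave 1447 and 859 (62.7%). Loess centring gave 1286 higher and 761 lower (62.8%), and quantile normalization 1274 and 736 (63.4%). Those 4 scalings moved the median difference up by 0.10, 0.15, 0.12 and 0.14, and values below are with the percentile scaling unless another is named.

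Among genes bright on both arrays, those most in excess in double-mutant-host cells were led by Aldh1a1, the retinaldehyde dehydrogenase that makes retinoic acid. Its level was 2.52 in double-mutant-host cells and -3.03 in RUNX1S291fs-host cells, a 46.8-fold difference. Cavin2, a coat protein of caveolae, followed at 2.82 against -1.84, and its partner Cavin1 at 3.70 against 0.33. Both cavin genes were over 10-fold higher in double-mutant-host cells with the percentile scaling and the brightest probe. The smallest log2 difference under any alternative was 1.18 for Cavin1 and 3.81 for Cavin2. Tie1, a receptor tyrosine kinase of endothelium and stem cells, had 0.72 in double-mutant-host cells and -2.77 in RUNX1S291fs-host cells. Npdc1 differed by 3.45, the glutathione transferase gene Gstm2 by 3.43 and Apol9b, of the apolipoprotein L family, by 3.62. The 3 measured probes of Gstm2 ran from 1.64 to 3.43. Vwf, Hspb1, Vpreb3 and Dlk1, also among the top 12, belong to the groups described below. Bright in double-mutant-host cells but not well above background in RUNX1S291fs-host cells were Evc2, a protein of the ciliary base, at least 38.5-fold higher, Mmrn1, a platelet and endothelial multimerin, at least 35.3-fold, and Cyp26b1, which breaks retinoic acid down, at least 26.7-fold. Ctso, a cathepsin, Tceal3, and Gfra2, a co-receptor of neurturin, were at least 28.8-fold, 28.7-fold and 27.4-fold higher. These 6 sizes depended on the background correction or the probe: the smallest log2 difference under any alternative was 2.42 for Evc2, 3.37 for Mmrn1, 2.08 for Cyp26b1, 2.45 for Ctso, 2.16 for Tceal3 and 2.81 for Gfra2. Evc2 was well above background on 1 of the 6 other arrays, Tceal3 on 3 and the other 4 on all 6.

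At the opposite end, the 12 largest deficits of double-mutant-host cells were all but 1 granulocyte, eosinophil or haemoglobin genes. They were Camp, S100a8, Rnase2a, Ear2, S100a9, Ear1, Hba-a2, Hba-a1, Ear10, Wfdc21 and Hbb-bs, and the exception was Rps4l, a copy of ribosomal protein S4, at -3.51 in double-mutant-host cells and 0.08 in RUNX1S291fs-host cells. Bright on 1 of both arrays alone were 1208 genes in double-mutant-host cells and 145 in RUNX1S291fs-host cells. Ly6k was at least 132.5-fold lower in double-mutant-host cells, Upk3bl at least 116.3-fold, Fmr1nb at least 84.6-fold, Ldhc, the lactate dehydrogenase of testis, at least 46.6-fold, Tmprss11g at least 41.8-fold and Tmed11 at least 32.5-fold. The log2 differences nearest to 0 under any alternative were -4.91 for Ly6k, -4.05 for Upk3bl, -4.21 for Fmr1nb, -2.55 for Ldhc, -2.71 for Tmprss11g and -2.38 for Tmed11. Of these, Tmprss11g and Tmed11 were well above background on none of the 6 other arrays. Of the 1208 genes, 74 (6.13%) were bright on none of the 6 other arrays, and of the 145 genes 38 (26.2%).

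Genes of long-term stem cells were higher in double-mutant-host cells almost throughout. Of 29 on the list, 29 were measured, 22 were at least 2-fold higher and 1 was lower, with a median difference of 1.85 against -0.05 for all genes. Over the 23 bright on both arrays, 17 were higher, 1 was lower and the median was 1.64. Vwf, the von Willebrand factor of platelet-biased stem cells, stood at 3.89 in double-mutant-host cells and -0.36 in RUNX1S291fs-host cells, 19.1-fold apart. Trpc6, a calcium channel gene, was at 0.60 in double-mutant-host cells and at least 26.4-fold lower in RUNX1S291fs-host cells. Tcf15, a regulator of quiescent stem cells, was at 0.24 and at least 18.1-fold lower in those cells. With normexp the log2 differences of Trpc6 and Tcf15 were 2.33 and 2.09.

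Most surface markers and regulators of stem cells followed the same direction with smaller sizes. Slamf1, which encodes CD150, was at -0.58 in double-mutant-host cells and not well above background in RUNX1S291fs-host cells, at least 7.70-fold apart, or 1.05 on the log2 scale with normexp. Procr, which encodes EPCR, had 2.50 in double-mutant-host cells and 0.86 in RUNX1S291fs-host cells, and Esam, an adhesion molecule, 2.09 and 0.03. Eng, the TGF-beta co-receptor, had 2.75 and 1.41. Cd48, which long-term stem cells lack, went the other way at 5.73 in double-mutant-host cells and 6.66 in RUNX1S291fs-host cells, though under 2-fold. Flt3, Cd27, Kit and Thy1 lay 0.89, 0.73, 0.65 and 0.47 higher in double-mutant-host cells, also under 2-fold. Flt3 is also on the lymphoid-primed list, so its direction is not one of stem cell genes alone. Of the transcription factors, Hlf differed by 2.09, Hoxb5 by 2.53, Prdm16 by 2.30, Gfi1b by 2.00, Gata2 by 1.61 and Meis1 by 1.37. Mecom differed by 0.63 and Hoxa9 by 0.64, which did not reach the fold. Ifitm1, an interferon-induced membrane protein, differed by -0.69.

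**Figure D1:**
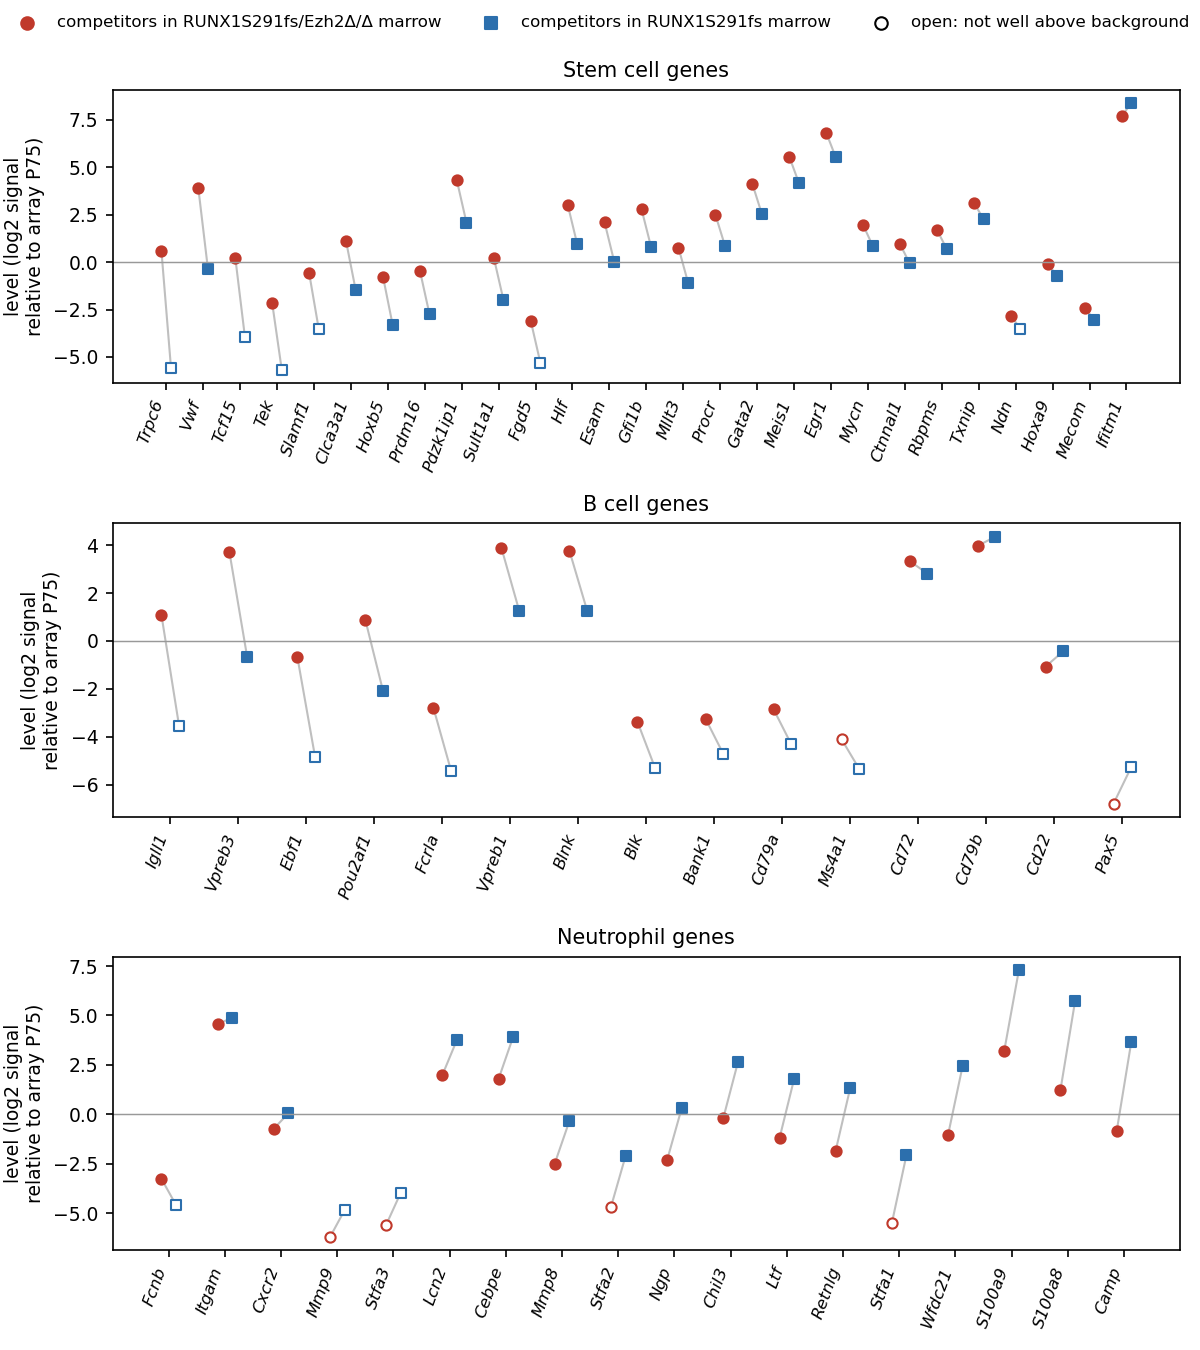
Level of the named stem cell, B cell and neutrophil genes (y axis, log2 signal relative to the 75th percentile, P75, of the array) in competitors of RUNX1S291fs/Ezh2Δ/Δ marrow (red circles, left) and of RUNX1S291fs marrow (blue squares, right), 1 array each, with open symbols for values not well above background. Red lies above blue for 26 of the 27 stem cell genes plotted, and blue above red for 13 of the 16 measured neutrophil genes by at least 2-fold.

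Genes shared by megakaryocytes and platelet-biased stem cells were higher as well. Of 21 measured, 13 were at least 2-fold higher in double-mutant-host cells and 0 lower, with a median of 1.32, and of 19 bright on both arrays 11 were higher. Besides Vwf, which is on both lists, Pf4, the platelet chemokine, had 4.41 in double-mutant-host cells and 1.78 in RUNX1S291fs-host cells. Itga2b, the platelet integrin CD41, had 2.07 and -0.47 in the same order, and Treml1, a platelet receptor, 1.79 and -0.81. The glycoprotein genes Gp5, Gp1ba, Gp9 and Gp1bb differed by 2.19, 2.00, 1.32 and 1.06, whereas Gp6 was 0.98 lower, and Ppbp was at least 1.84 higher. Normexp ended the calls of Gp1ba, Gp1bb and Ppbp, at 0.97, 0.12 and 0.04. The factors Fli1 at 0.11 and Nfe2 at -0.01 and the late cytoskeletal gene Tubb1, not well above background on either array, did not share that excess.

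B-lineage genes were higher in double-mutant-host cells with a median of 1.91 over 14 measured members, which was 0.93 with normexp. Of these, 9 were at least 2-fold higher in double-mutant-host cells and 0 lower, and of the 7 bright on both arrays 4 were higher. Vpreb3, a part of pre-B cell receptor assembly, had 3.70 in double-mutant-host cells and -0.65 in RUNX1S291fs-host cells, 20.5-fold apart. Vpreb1, of the surrogate light chain, had 3.88 and 1.27, and its partner Igll1 was at 1.09 and at least 24.9-fold lower in RUNX1S291fs-host cells. The lineage factor Ebf1 was at -0.69 in double-mutant-host cells and at least 10.8-fold lower in RUNX1S291fs-host cells. Blnk, the adaptor of the pre-B receptor, had 3.76 and 1.26, and Pou2af1, a co-activator, 0.86 and -2.10. Pax5, which commits cells to the lineage, and Ms4a1, which encodes CD20, were not well above background on either array, Cd79b lay 0.39 lower and Cd22 0.64 lower. Cd79a, of the B cell receptor, was at least 1.27 higher and Bank1, a signalling scaffold, at least 0.88, both from faint levels. With normexp 7 of the 14 were called, Igll1 differed by 2.61 and Ebf1 by 1.13, and Cd79a was not called.

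Lymphoid-primed progenitor genes were part of the excess but less evenly. Of 18 measured, 7 were at least 2-fold higher and 0 lower (median 0.89), and of 15 bright on both arrays 4 were higher (median 0.48). Ccr9, a thymus homing receptor, was at 0.38 in double-mutant-host cells and at least 12.1-fold lower in RUNX1S291fs-host cells. Rag1, the recombinase, was at -0.48 and at least 12.5-fold lower there, but another of its probes gave -0.08. Il7r, the receptor of lymphoid progenitors, had 0.04 in double-mutant-host cells and -1.18 in RUNX1S291fs-host cells. Dntt, which adds bases at antigen receptor joints, differed by 0.47, from a high level on both arrays, 7.86 in double-mutant-host cells. Irf4, of the plasma cell list, was at least 8.27-fold higher in double-mutant-host cells, and 3 of 7 measured genes of that list were higher and 0 lower. With normexp, Ccr9 and Rag1 differed by 1.69 and 1.44, and Il7r at 0.87 and Irf4 at 0.73 were no longer called. T and NK cell genes differed from these: 7 of 18 measured were lower in double-mutant-host cells and 1, Gata3 at 1.89, was higher (median -0.57). Cd3g was at least 2.79 lower, Gzma 1.78 and Cd3d 1.68, while Lck, at 4.26 and 3.83, was not 2-fold apart.

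Neutrophil genes were lower in double-mutant-host cells by large amounts. Of 18 with a probe 16 were measured, 13 were at least 2-fold lower and 0 higher, with a median of -2.73, and of 13 bright on both arrays 11 were lower. Normexp also left 13 lower, at a median of -1.82. S100a8 and S100a9 encode the subunits of calprotectin, the main cytosolic protein of neutrophils. S100a8 had 1.23 in double-mutant-host cells and 5.72 in RUNX1S291fs-host cells, 22.4-fold apart, and S100a9 had 3.22 and 7.29, 16.8-fold apart. Camp, the cathelicidin of secondary granules, had -0.87 and 3.65, and its 2 probes gave -4.51 and -4.46. The other secondary granule genes lay in between: Ltf, lactoferrin, at -1.21 in double-mutant-host cells and 1.78 in RUNX1S291fs-host cells, Ngp at -2.32 and 0.31, and Lcn2, lipocalin 2, at 1.98 and 3.77. Cebpe, the C/EBP family factor required in mice for secondary granules, was lower too, at 1.78 in double-mutant-host cells and 3.92 in RUNX1S291fs-host cells. The summed linear signal of the list, in units of the 75th percentile, was 46.3 in double-mutant-host cells and 301.2 in RUNX1S291fs-host cells. Itgam, the integrin Mac-1 that lineage cocktails commonly contain, was nearly level at 4.55 and 4.89, and the ficolin gene Fcnb was at least 0.85 higher. Stfa1 and Stfa2, members of a family of near-identical stefins that a probe may not separate, were at least 3.30 and 2.58 lower. Mature neutrophils are lineage-positive, so the LSK gate should leave them out, and the part that cells of that kind may have in the values was not tested.

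Promoters are shown for 4 genes of the neutrophil list that hold a match of the C/EBP-type letters TTGCNNAA. Each is the 250 bases before the RefSeq start in GRCm38.p6, 5′ to 3′, with every match on either strand in capitals. The windows are chr9:110419558-110419807 (forward strand) for Ngp, chr9:111019042-111019291 (forward strand) for Ltf, chr2:32387740-32387989 (reverse strand) for Lcn2 and chr3:90695722-90695971 (reverse strand) for S100a9.
Ngp: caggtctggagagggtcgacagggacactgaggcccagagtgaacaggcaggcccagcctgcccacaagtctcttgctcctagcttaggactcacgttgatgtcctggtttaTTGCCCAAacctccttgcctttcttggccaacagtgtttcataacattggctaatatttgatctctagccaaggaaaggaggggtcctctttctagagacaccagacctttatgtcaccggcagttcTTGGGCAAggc
Ltf: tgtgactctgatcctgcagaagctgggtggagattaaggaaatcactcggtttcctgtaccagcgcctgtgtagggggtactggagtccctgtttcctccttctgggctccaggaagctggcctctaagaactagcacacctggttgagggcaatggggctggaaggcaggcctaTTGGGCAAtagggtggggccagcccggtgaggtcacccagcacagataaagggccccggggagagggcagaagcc
Lcn2: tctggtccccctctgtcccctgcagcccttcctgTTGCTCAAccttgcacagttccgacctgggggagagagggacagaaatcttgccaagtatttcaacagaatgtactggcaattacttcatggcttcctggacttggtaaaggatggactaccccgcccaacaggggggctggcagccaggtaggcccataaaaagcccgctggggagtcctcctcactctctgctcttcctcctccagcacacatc
S100a9: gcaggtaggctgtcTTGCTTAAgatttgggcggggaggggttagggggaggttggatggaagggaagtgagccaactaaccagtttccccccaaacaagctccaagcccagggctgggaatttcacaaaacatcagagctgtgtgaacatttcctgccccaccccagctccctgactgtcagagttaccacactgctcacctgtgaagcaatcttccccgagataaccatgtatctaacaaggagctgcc
A match lay in 9 of 17 neutrophil-list promoters in the RefSeq table (Ngp, Ltf, Lcn2, S100a9, Mmp8, Ly6g, Stfa1, Retnlg and Fcnb), against 10.8% of all 27025 genes with a promoter entry. On the primary granule list 1 of 12 promoters held one, that of Gfi1. Fcnb, with a match, was not lower, and Ly6g, also with one, has no named probe here and so no difference. Camp and S100a8, the largest deficits of the list, and Cebpe itself were not among the genes with a match. The motif was chosen with the values known, so these matches describe letters and no site of binding. Other motifs were sought on the lists: the RUNX letters TGTGGT lay in 1 of 21 stem cell, 4 of 17 neutrophil and 3 of 12 primary granule promoters against 15.9% of all genes, and the GATA letters AGATAA in 2 of 15 megakaryocyte and 6 of 17 erythroid promoters against 11.4%.

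Primary granule genes, made in promyelocytes and their progenitors, were lower to a smaller extent. Of 15 measured, all bright on both arrays, 11 were at least 2-fold lower in double-mutant-host cells and 0 higher (median -1.32). Elane, neutrophil elastase, had 4.80 in double-mutant-host cells and 7.30 in RUNX1S291fs-host cells, and Ms4a3, a marker of granulocyte and monocyte progenitors, 4.87 and 7.53. Igsf6 differed by -2.26 and Hp, haptoglobin, by -2.14, and Mpo, myeloperoxidase, had 9.20 and 10.52, a call that loess centring ended at -0.37. The factors and receptors above these genes were closer: Spi1 differed by 0.15, Cebpa by -0.45, Csf3r by -0.50 and Gfi1 by -0.76. Quantile normalization or loess centring left 6 of the 15 lower. Monocyte and macrophage genes gave 10 of 16 lower and 0 higher (median -1.25), led by Slc40a1, the iron exporter, at least 2.85 lower, F13a1 at -2.29, Adgre1, which encodes F4/80, at -2.12, and Ccr2 at -1.90. Klf4 at 0.96 and Lyz2 at 0.85 lay higher but under 2-fold, and C1qa, C1qc, Mrc1 and Cd163 were not well above background on either array.

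Eosinophil genes were lower in double-mutant-host cells by amounts near those of neutrophil genes: 6 of 9 measured were lower and 0 higher (median -2.01). Ear2, an eosinophil ribonuclease, differed by -4.10, with a level of 2.11 in RUNX1S291fs-host cells, and Ear1 had -3.66 in double-mutant-host cells and 0.34 in RUNX1S291fs-host cells. They belong, with Rnase2a and Ear10, to a family of near-identical ribonucleases that 1 probe may not separate. Prg3, a granule major basic protein, differed by -2.49, Epx, eosinophil peroxidase, by -2.01 and Prg2 by -1.70, whereas the IL5 receptor gene Il5ra at -0.14 and Siglecf at -0.56 did not reach the fold. Mast cell and basophil genes gave 3 of 12 lower and 1 higher (median -0.72). Mcpt8, a basophil protease, had 1.90 in double-mutant-host cells and 3.81 in RUNX1S291fs-host cells, Mcpt4 differed by -1.37 and Hdc by -1.07, and Cpa3, the mast cell carboxypeptidase, was level at 2.24 on both. Gata2, which is on this list and on the stem cell list, was the higher gene.

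The erythroid list held genes on both sides. Of 19 measured, 7 were at least 2-fold lower in double-mutant-host cells and 3 higher (median -0.49). Hba-a2 had 3.71 in double-mutant-host cells and 7.43 in RUNX1S291fs-host cells, Hba-a1 had 1.27 and 4.96, and Hbb-bs had -2.66 and 0.57, with globin copies that probes may not separate. Alas2, the first enzyme of erythroid haem synthesis, was at least 2.97 lower, Slc4a1, the anion exchanger band 3, 2.40 lower, and Tfrc, the transferrin receptor, 1.45 lower. Car2, carbonic anhydrase 2, went the other way at 5.59 in double-mutant-host cells and 3.43 in RUNX1S291fs-host cells, as did Aqp1 by 1.95 and the erythropoietin receptor gene Epor by 1.09. Gata1 at 0.98 and Tal1 at 0.81 lay just under the fold, Klf1 at -0.66, and Rhag, Sptb and Ank1 were not well above background on either array.

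MHC class II and dendritic cell genes were close to level, with 1 of 15 higher and 2 lower (median 0.31). Over all genes measured, 7.74% were higher and 9.39% lower. H2-Aa differed by 1.59, Clec9a by -1.98 and Batf3 by -1.40, and H2-DMb2, at least 0.76 higher, did not reach the fold. Loess centring, quantile normalization and normexp each gave 4 higher. The endothelial and stromal list was used to look for other cells. Cdh5, the defining cadherin of endothelium, and Cxcl12, Col1a1, Col3a1, Pdgfra, Adipoq and Kitl were not well above background on either array. Of 10 measured members, 4 were higher and 2 lower, namely Tie1 at 3.49, Emcn at least 1.83, Col1a2 at 1.77 and Sparc at 1.39 against Lepr at -2.07 and Kdr at -1.89, and the 2 measured probes of Kdr disagreed, at -1.89 and 0.71. Normexp ended the calls of Emcn at 0.18 and Col1a2 at 0.68. The niche and adhesion list gave 6 of 21 higher and 1 lower (median 0.13). On it, S1pr1, the receptor that guides cells out of tissues, had 1.53 in double-mutant-host cells and -0.89 in RUNX1S291fs-host cells, Robo4, a stem cell receptor, 3.20 and 0.91, and Angpt1, the ligand of the receptor Tek, 5.17 and 3.86.

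**Figure D2:**
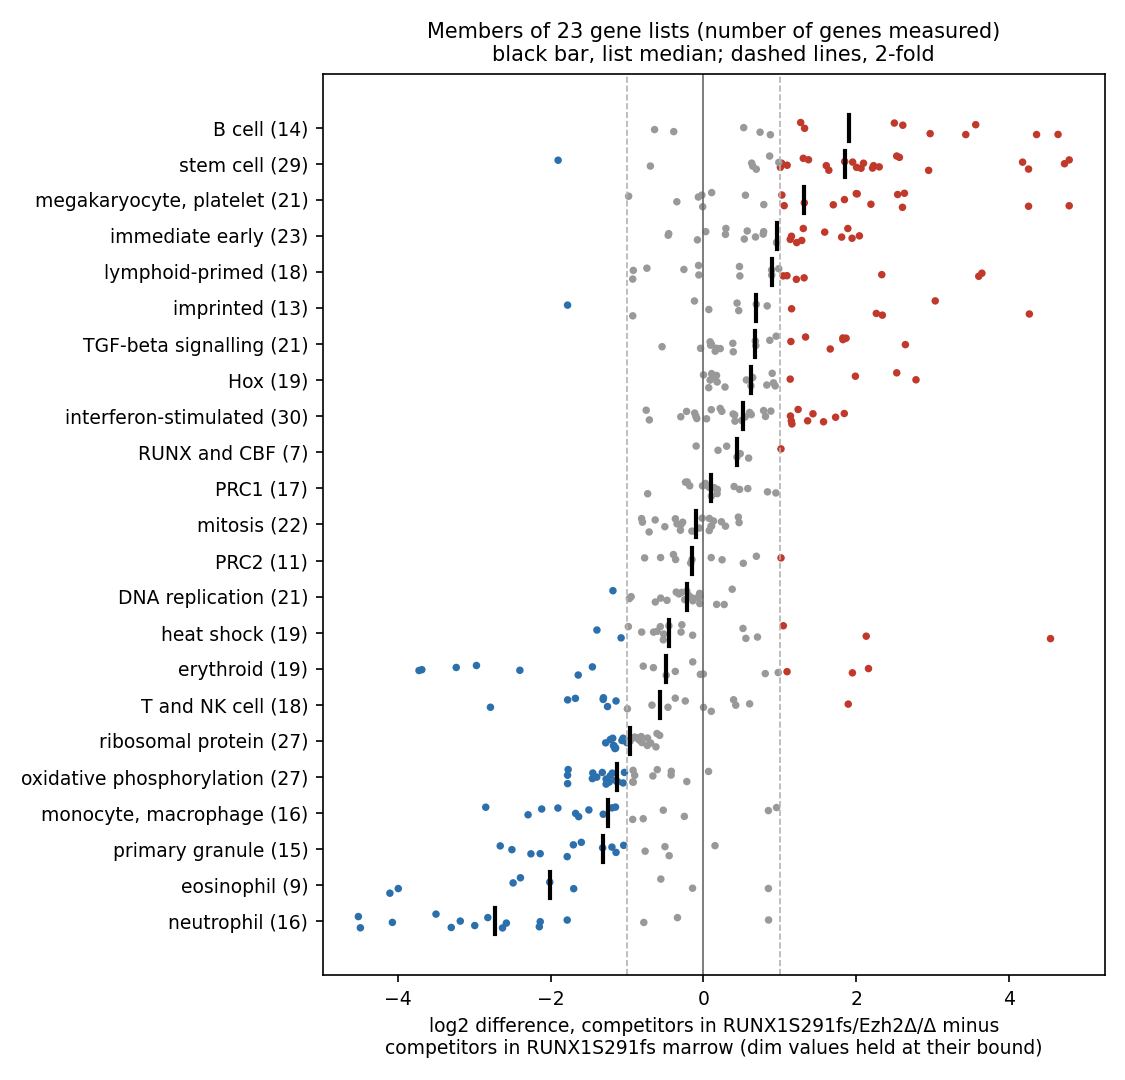
Log2 difference of each measured member (points, double-mutant-host minus RUNX1S291fs-host cells, 1 array each) of 23 gene lists, with list medians as black bars, genes at least 2-fold higher in red, at least 2-fold lower in blue and others grey. B cell, stem cell and megakaryocyte genes lie to the right with medians of 1.91, 1.85 and 1.32, and neutrophil, eosinophil and primary granule genes to the left with -2.73, -2.01 and -1.32.

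Genes of response and quiescence pathways were higher in part. Of 23 immediate early genes, which cells switch on within minutes of a signal, 10 were higher and 0 lower (median 0.96), with 15 higher under loess centring (median 1.28) and 17 under quantile normalization (median 1.30). Ier5 had 0.76 in double-mutant-host cells and -1.28 in RUNX1S291fs-host cells, Junb 1.47 and -0.47, Nr4a1, an orphan nuclear receptor, 8.78 and 6.89, and Nr4a2 3.92 and 2.11. Fos at -0.08, Jun at 0.53 and Dusp1 at -0.45 did not reach the fold. Of the TGF-beta pathway, 7 of 21 were higher and 0 lower (median 0.68). The target Id3 had 2.20 and -0.44, the inhibitors Skil and Smad7 differed by 1.82 and 1.66, the ligand Tgfb3 by 1.87 and the co-receptor Tgfbr3 by 1.82, whereas the transducers Smad2 and Smad4 differed by 0.09 and 0.38. Normexp ended the call of Tgfb3, at 0.41. Among CDK inhibitors, Cdkn1c, which encodes the p57 protein of quiescent stem cells, had 0.74 in double-mutant-host cells and -1.60 in RUNX1S291fs-host cells. Cdkn1a differed by 1.02, Cdkn2a by at least 1.12 from a faint level of -2.99, a call lost with normexp, and Cdkn1b by 0.16. With the median over probes in place of the brightest probe, 1 of the 6 measured was past the fold in place of 3.

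Interferon-stimulated genes gave 9 of 30 higher and 0 lower, at a median of 0.52. Ifi44 had -0.02 in double-mutant-host cells and -1.87 in RUNX1S291fs-host cells, Oas2 2.40 and 0.67, Oasl2 2.97 and 1.40, and Irf7, an amplifier of the response, -0.24 and -1.67. Isg15 at -0.11, Ifit1 at 0.60, Ifit3 at 0.39 and Ifi27 at -0.09 did not share that size. For NF-kappaB and inflammatory genes 2 of 23 were higher and 2 lower (median 0.31). Both counts are near the shares over all genes measured, 7.74% higher and 9.39% lower, beside which the list counts that follow also stand. Spike-in scaling, quantile normalization or loess centring gave 4 higher, and the percentile over probes bright on both arrays gave 7. Icam1 had -0.26 and -2.40, Tnf differed by 1.00, Ccl2 by -1.51 and Il1b by -1.01. Of p53 targets 5 of 21 were higher and 2 lower (median 0.43), with Plk2 at 1.44, Trp53inp1 at 1.35 and Bbc3 at 1.28 against Tigar at -1.42 and Pmaip1 at -1.25. Unfolded protein response genes gave 2 of 20 higher, Trib3 at 2.14 and Ddit3 at 1.38, and 3 lower, Sdf2l1 at -1.56, Calr at -1.18 and Manf at -1.18. Normexp, quantile normalization or loess centring left 1 of that list lower. On the cytokine receptor list 4 of 27 were higher, among them Il7r, Tgfbr2 and Epor, and 2 lower, Csf1r and Ifngr1 at -1.20 and -1.03. The same 3 alternatives left 0 receptor genes lower.

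Heat shock genes lay on both sides with the percentile scaling. Hspb1, the small chaperone HSP27, had 3.23 in double-mutant-host cells and -1.31 in RUNX1S291fs-host cells, 23.3-fold apart, and Hspa1a, the inducible HSP70, 4.04 and 1.91. Dnajb4 differed by 1.04, and the other 16 measured members were under 2-fold higher or were lower, down to Hspe1 at -1.39 and Cacybp at -1.08 (median -0.45, and 0.08 with loess centring). Loess centring or quantile normalization gave 4 higher and 0 lower, and normexp 2 higher and 1 lower. The bases before the starts of both genes are shown because these 2 members stood apart from the constitutive chaperones, with capitals for the letters GAANNTTC, a pair of facing heat shock units, on either strand. The windows are chr5:135887669-135887918 (forward strand) for Hspb1 and chr17:34972157-34972406 (reverse strand) for Hspa1a, RefSeq, GRCm38.p6.
Hspb1: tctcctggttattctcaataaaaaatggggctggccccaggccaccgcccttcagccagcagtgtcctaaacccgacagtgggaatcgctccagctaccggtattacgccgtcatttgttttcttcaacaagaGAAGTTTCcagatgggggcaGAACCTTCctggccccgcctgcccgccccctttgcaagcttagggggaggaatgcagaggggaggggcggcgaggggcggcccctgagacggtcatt
Hspa1a: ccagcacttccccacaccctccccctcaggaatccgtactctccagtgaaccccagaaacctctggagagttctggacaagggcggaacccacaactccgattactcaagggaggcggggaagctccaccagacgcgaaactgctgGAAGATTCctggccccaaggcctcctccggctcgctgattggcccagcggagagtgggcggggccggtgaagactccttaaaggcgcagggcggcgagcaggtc
Of 17 promoters of the list, 7 held the letters, against 7.73% of all genes. They included Hspd1, Hspe1, Dnaja1 and Fkbp4, none of which was higher. Hspa1a has a near-identical neighbour, Hspa1b, that its probe may not separate.

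Chromatin regulators hardly differed. Of 11 PRC2 genes 1 was higher and 0 lower (median -0.15). It was Phf1, an accessory subunit, at -0.10 in double-mutant-host cells and -1.11 in RUNX1S291fs-host cells, and its second probe gave 0.08. Ezh1, the alternative methyltransferase, had 4.14 and 3.45. Suz12 and Eed, the core subunits, differed by -0.15 and -0.56, Jarid2, Aebp2 and Phf19 by 0.10, 0.24 and 0.52, and Mtf2, Rbbp7 and Rbbp4 by -0.36, -0.39 and -0.77. Normexp and loess centring ended the call of Phf1. Of 17 PRC1 genes 0 were called in either direction (median 0.10) with percentile scaling, and 1 or 2 were higher with the other scalings, Bmi1 lying at 2.53 in double-mutant-host cells and 2.71 in RUNX1S291fs-host cells. In the RUNX group, Runx2 differed by 0.59, Runx3 by 0.19 and Cbfb, the shared partner, by -0.10. Cbfa2t3, a corepressor kept in stem cells, was the called member at 4.37 and 3.36, Cbfa2t2 differed by 0.48, and Runx1t1 was at least 0.44 higher.

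Hox and imprinted genes had excesses carried by single members. Of 35 Hox genes with a probe 19 were measured, 4 were higher and 0 lower (median 0.62), but of the 11 bright on both arrays only Hoxb5 was. Hoxb6 was at -1.34 in double-mutant-host cells and at least 6.87-fold lower in RUNX1S291fs-host cells, and Hoxc6 and Hoxa2 were at least 1.99 and 1.13 higher. Normexp ended these 3 calls, at 0.65, 0.26 and 0.00, and left 1 of the 19 genes called at a median of 0.16, whereas the percentile over probes bright on both arrays gave 8. Hoxa9, Hoxb4 and Hoxa7 differed by 0.64, 0.17 and 0.07. Of 13 measured imprinted genes, 5 were higher and 1 lower (median 0.69). Dlk1, a Notch-like membrane protein of fetal and progenitor cells, had 2.32 in double-mutant-host cells and -1.94 in RUNX1S291fs-host cells, and its second probe gave 3.27. Its neighbour in the same imprinted cluster, the long noncoding RNA Meg3, was at -1.06 and at least 8.18-fold lower in RUNX1S291fs-host cells, with another probe at 0.01, and its difference was 0.82 with normexp. Igf2r, the receptor that clears IGF2, had -0.26 and -2.52, and Sgce differed by 1.15. The lower one, Ndufa4, differed by -1.78 and is also counted on the oxidative phosphorylation list. Normexp left 3 genes of the list higher, with Sgce at 0.70. Igf2, Peg3, Mest and Nnat were not well above background on either array.

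Cell cycle genes did not part the groups. Of 21 DNA replication genes 0 were higher and 1 was lower, Ccne1 at 3.05 in double-mutant-host cells and 4.24 in RUNX1S291fs-host cells, with a second probe at 0.05 (list median -0.22). Of 22 mitosis genes 0 were called (median -0.10), with Top2a at 0.47 and Birc5 at -0.81 as extremes on either side, and Mki67, the proliferation antigen, at 6.24 and 6.00. Replication-dependent histone genes, a group taken up after their values were seen, behaved otherwise: 33 of 43 were lower and 1 was higher (median -1.34). H1f1 had 2.57 in double-mutant-host cells and 5.01 in RUNX1S291fs-host cells, H1f5 5.53 and 7.53, and H4c3 2.31 and 4.42, and many of the 43 are near-identical copies that probes may not separate. Loess centring left 16 of them lower, and the median was then -0.87.

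Genes of respiration and protein synthesis were lower in double-mutant-host cells, by amounts that depend on the scaling. Of 27 oxidative phosphorylation genes 17 were lower and 0 higher (median -1.13), among them Cox7a2 at 5.49 and 7.27 and Uqcrq at 6.80 and 8.57. Loess centring or quantile normalization left 3 of them lower, at medians of -0.63 and -0.61. Of 27 ribosomal protein genes 11 were lower and 0 higher (median -0.96), with Rps27a at 9.71 in double-mutant-host cells and 10.99 in RUNX1S291fs-host cells, but loess centring or quantile normalization left 0, at medians of -0.04 and 0.00. Housekeeping genes had a median of -0.62, which turned to 0.10 with loess centring, and glycolysis and antioxidant genes turned sign likewise (-0.29 to 0.03 and -0.21 to 0.14). Over all genes bright on both arrays the difference also varied with brightness: in 5 equal bins, the median differences with percentile scaling were -0.14, 0.10, -0.00, -0.14 and, for the brightest, -0.42. In 5 equal bins of the span of the gene in GRCm38.p6, they were -0.41 for the shortest genes, then -0.23, -0.13, -0.05 and 0.12 for the longest. With loess centring the span series was -0.18, -0.05, 0.00, 0.06 and 0.20, so its order did not depend on that choice. The part of brightness and span in the differences of these lists was not tested.

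**Figure D3:**
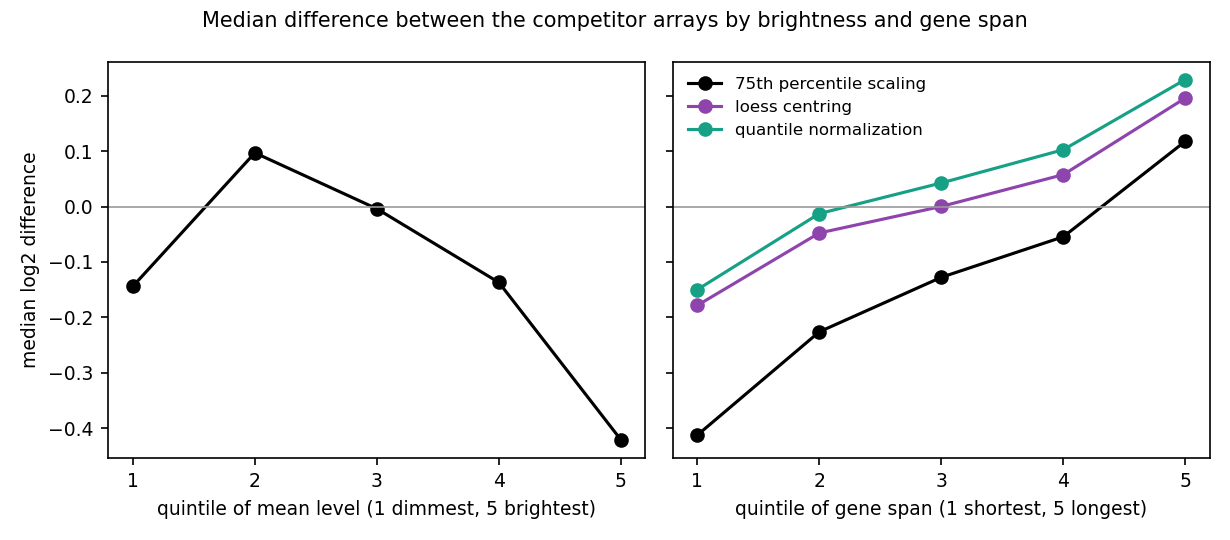
Median log2 difference (y axis, double-mutant-host minus RUNX1S291fs-host cells) over genes well above background on both arrays, in 5 equal bins of mean level (left) and of gene span (right), with lines for 3 scalings on the right. The brightest bin lies at -0.42, and the span series climbs from -0.41 to 0.12 with percentile scaling and from -0.18 to 0.20 with loess centring.

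The levels on the other 6 arrays place these differences. The mean level of the 29 stem cell genes was 1.69 in double-mutant-host cells and -0.28 in RUNX1S291fs-host cells, against 1.38 on the CD45.2+ WT array and 0.35 to 1.47 on the other 5, so RUNX1S291fs-host cells had the lowest mean of the 8 arrays. For the 21 megakaryocyte genes the means were 1.87 and 0.39, against 1.89 on WT and 0.95 to 4.45 on the other 5. B cell genes averaged 0.43 in double-mutant-host cells and -1.84 in RUNX1S291fs-host cells, against -1.78 on WT, and only the CD45.2+ Ezh2Δ/Δ array, at 1.78, was above the double-mutant-host cells. Neutrophil genes averaged -0.71 and 1.79, against -0.85 on WT, 1.15 on the RUNX1S291fs array and 4.46 on the RUNX1S291fs/Ezh2Δ/Δ array. The mutant cells of RUNX1S291fs/Ezh2Δ/Δ marrow thus had the highest neutrophil mean of the 8 arrays, and the wild-type cells beside such mutants 1 near that of WT. Primary granule genes averaged 4.46 in double-mutant-host cells and 5.86 in RUNX1S291fs-host cells, against 3.59 on WT. Eosinophil genes averaged -1.93 and -0.11, against -0.80 on WT. Means include values not well above background, and the arrays of WT, of RUNX1S291fs/Ezh2Δ/Δ and of both moribund mice lay on other slides than the competitors, which cannot be told apart from their groups.

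**Figure D4:**
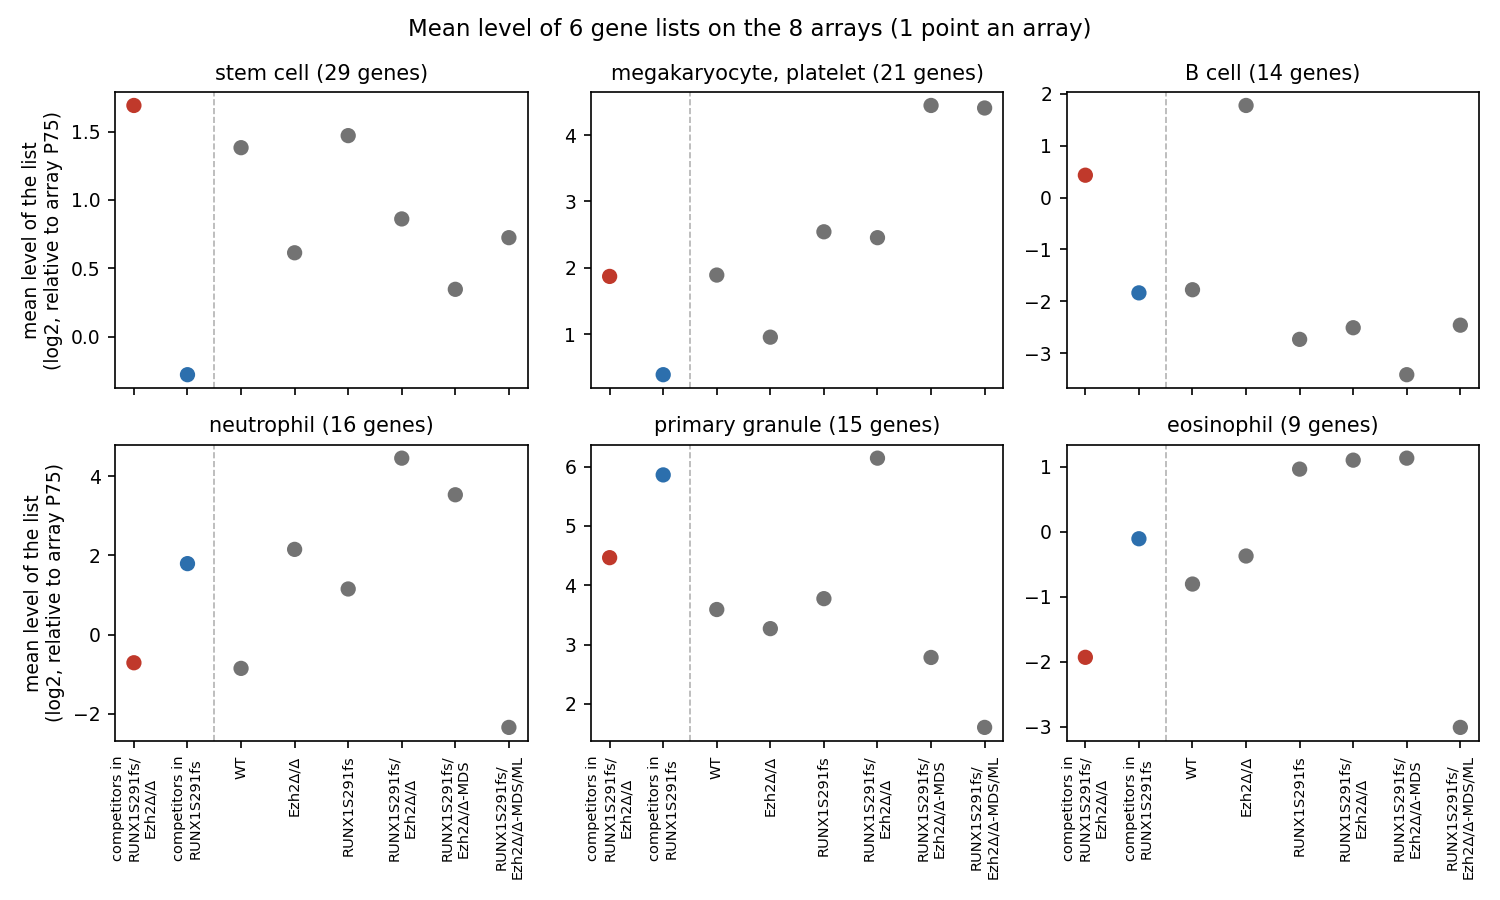
Mean level of 6 gene lists (y axes, log2 signal relative to the 75th percentile, P75, of the array) on each of the 8 arrays, with double-mutant-host cells in red, RUNX1S291fs-host cells in blue and the 6 CD45.2+ arrays in grey, 1 point an array and no error to show. RUNX1S291fs-host cells have the lowest mean for stem cell (-0.28) and megakaryocyte genes (0.39), where double-mutant-host cells (1.69 and 1.87) lie near WT (1.38 and 1.89).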

How the data were processed

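LSK cells of 8 groups were measured on 1 Agilent one-colour array each. Sorting used a FACSAriaII, per the labels' protocols, and 20 ng of total RNA was amplified and labelled with Cy3. Per the file headers, arrays of design 028005 (header build mm9) were read with Feature Extraction 10.7.1.1, and the deposited processed signal is an intensity from which each array's own background and spatial trend were taken off, with no scaling between arrays, while the median spot and local background values are pixel intensity before correction. The series table deposited by the authors holds linear signal. Each of its columns matched the processed signal up to 1 scaling factor, within 0.01 log2 in 100% of probes, with column medians of 0.0526 for double-mutant-host cells and 0.0622 for RUNX1S291fs-host cells and no centring on genes. All 8 of its columns were mapped and 0 were left out. Spots marked as outliers were left out, repeat spots averaged, and each array centred on its 75th percentile. Of 55681 probes, 27428 were named through RefSeq accessions (table of GRCm38.p6), covering 20833 genes, and 28253 have no name here, of which 10809 were measured, 502 at least 2-fold higher and 1795 lower. The brightest probe over 8 arrays was kept for the 5494 genes with several. A difference whose bound fell on the other side of 0 was set to 0. Calls were checked on simulated data. The simulation gave both arrays the same bound and repeat-spot noise alone, so it does not cover the unequal bounds of these arrays.

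The members of 38 gene lists and the comparison were chosen with earlier results of these data known. Genes were named by rule: the 12 largest differences each way among genes bright on both arrays, the 6 largest bounds each way among genes bright on 1, leaving out predicted genes, the 4 largest in each list, and all sort markers, PRC2, RUNX and sex-linked genes. Further list members, the histone, Tceal, Bex and Gimap groups, the motifs and the promoters shown were chosen after their values were seen. Alternatives were normexp (limma 3.58.1, R 4.3.3, offset 50, on the median spot signal because the files hold no mean), other percentiles, spike-in scaling, quantile normalization, loess centring (statsmodels, span 0.3), filters, measured values, the median over probes, the series table and a 4-fold call. Promoters came from the RefSeq table, 32851 entries of 27025 genes. Some genes are not reported here by name, though counts, medians and means of lists include them.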

Additional observations from a re-analysis of the deposited data

How the results depend on the processing

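Of 239 called genes among the lists and named genes, 201 had a value in all 10 alternatives at 2-fold, and 132 of these stayed past it on the same side in all 10. The other 38, bright on 1 array alone, have no value where both arrays must be bright, and 24 stayed past 2-fold in the rest. Of the 239, 2 took the opposite sign in 1 alternative. Rps24 was 0.12 with the median over probes, against a deficit just past the fold, and Nr4a3 -0.13 with normexp, against 1.15. Normexp gave 491 genes higher, 728 lower and 10 oxidative phosphorylation genes lower. Quantile normalization gave 736 genes lower and loess centring 761, and with each of them 6 primary granule and 3 oxidative phosphorylation genes were lower. Genes bright on both arrays gave 653 higher and 4 B cell genes higher. The median over probes gave 1 CDK inhibitor. At 4-fold, 236 genes were higher and 183 lower, with 13 stem cell, 7 megakaryocyte and 1 CDK inhibitor gene higher, and 4 primary granule, 3 monocyte and 0 oxidative phosphorylation genes lower. The cause of these shifts was not tested, except that fewer genes enter with both arrays bright and fewer pass a higher fold. The filter on dim genes made no difference to the calls by construction, since a gene dim on both arrays has no difference. No paired analysis was possible because each group has 1 array, and each label gives replicate 1 only. RUNX1S291fs-host cells had the lower share of probes above background (49.9% in double-mutant-host cells and 43.9% in RUNX1S291fs-host cells), so their faint genes are known by bounds more often.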

Other observations

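Some gene families outside the lists, taken up after their values were seen, also differed. Of 11 measured Tceal and Bex genes, small X-linked proteins related to an elongation factor, 7 were at least 2-fold higher in double-mutant-host cells and 0 lower, with a median difference of 1.68. Of the 8 bright on both arrays, 4 were higher. With normexp 5 of the 11 were higher, at a median of 0.86. Tceal5 had levels of 1.38 in double-mutant-host cells and -1.45 in RUNX1S291fs-host cells, Bex1 had 3.09 and 1.38, and Bex4 had 1.72 and 0.04. Tceal6 was at 0.75 in double-mutant-host cells and at least 4.14 lower on the log2 scale in RUNX1S291fs-host cells. Tceal8, Tceal9 and Bex6 differed by -0.04, -0.31 and -0.69, so the direction was not shared by all members.

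Of 8 Gimap genes, GTPases known for lymphocyte survival, 5 were at least 2-fold higher in double-mutant-host cells and 0 lower (median 1.11), all 8 being bright on both arrays. Gimap8 had 0.96 in double-mutant-host cells and -1.30 in RUNX1S291fs-host cells, Gimap1 had 3.78 and 2.18, and Gimap6 had 4.80 and 3.50. Gimap9 was nearly level at 0.42 and 0.46.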
